A study of Danio rerio with 11 samples.

Results

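The zebrafish gene cyp7a1 (ENSDARG00000069018) was followed through every library of a study of fully grown ovarian follicles. It is 1 of 35889 genes in the deposited count table, found by its symbol, and it was picked because its level was lower in both mutant groups than in the controls. That contrast therefore describes the gene and is not tested below. The comparison of the mutant groups with each other is not part of that rule and is tested. The gene was still chosen with earlier results of these data known.

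CYP7A1 is the cytochrome P450 that hydroxylates cholesterol at the start of the classic route to bile acids, and in mammals it is the rate-limiting enzyme of that route and is made mainly in hepatocytes. Its transcription in mammalian liver is raised by the orphan receptor NR5A2 and held down by the receptors NR1H4 and NR0B2 and by FGF19 signalling through FGFR4. In the ovary, cholesterol is better known as the substrate of CYP11A1, the P450 that opens the route to steroid hormones.

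The study measured polyadenylated RNA by sequencing in follicles above 650 µm, taken from adult females 180 days after fertilisation. The fshb/lhcgr mutant group (4 libraries) carried no intact copy of fshb or of lhcgr and 1 mutant copy each of lhb and fshr (fshb-/-;lhb+/-;fshr+/-;lhcgr-/-). The lhb/lhcgr mutant group (4 libraries) lacked lhb and lhcgr in the same way and carried 1 mutant copy each of fshb and fshr (lhb-/-;lhcgr-/-;fshb+/-;fshr+/-). The controls (3 libraries) were not wild type but carried 1 mutant copy of each of the 4 genes (fshb+/-;lhb+/-;fshr+/-;lhcgr+/-), so all 3 groups were heterozygous at fshr. fshb and lhb encode the beta subunits of follicle-stimulating and luteinising hormone, and fshr and lhcgr encode their receptors. The kind of mutant allele is not stated, and the labels do not say outright that each replicate was a different fish, so p-values speak only of the spread among these libraries. Each such follicle is an oocyte wrapped in granulosa and theca layers, and in bulk RNA of it fewer cells of a type and less RNA per cell cannot be told apart.

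The libraries held between 14179252 and 25484718 counts, and 19421 genes passed the filter on low counts. The targeted lhcgr kept its mRNA, with 1645 to 2458 counts in fshb/lhcgr mutants, 1899 to 5051 in lhb/lhcgr mutants and 1645 to 4735 in controls, so its level does not check the labels. lhb had 25 to 97, 10 to 160 and 294 to 537 counts in the same order of groups, and fshb had 0 to 5, 1 to 11 and 0 to 2. Markers of the follicle were abundant: 11 oocyte genes summed to between 4554 and 6914 counts of the gene per 1e+06 counts of the library (CPM) in every library, and 10 granulosa genes to between 465 and 1366 CPM. The closest libraries, lhb/lhcgr mutant 3 and 4, still differed by 23.1 times the variance of counting alone, so they were kept as separate samples.

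cyp7a1 was a moderately expressed gene in control follicles and close to the limit of detection in lhb/lhcgr mutant follicles. The fshb/lhcgr mutant libraries 1 to 4 had 22, 17, 48 and 31 reads of it. The lhb/lhcgr mutant libraries had 9, 6, 6 and 22 reads, and the controls had 550, 259 and 567. No library lacked the transcript, and every control had at least 5 times the reads of any mutant library.

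Scaled for library size with TMM factors, cyp7a1 stood at 1.5, 1.12, 3.70 and 1.92 CPM in the fshb/lhcgr mutants, at 0.543, 0.367, 0.223 and 1.32 CPM in the lhb/lhcgr mutants and at 36.8, 18.4 and 35.7 CPM in the controls. Within their own groups, fshb/lhcgr mutant 3 and lhb/lhcgr mutant 4 were the highest, and control 2 was the lowest control. The means were 2.06 ± 1.14 CPM in fshb/lhcgr mutants (SD, n = 4), 0.614 ± 0.491 CPM in lhb/lhcgr mutants (SD, n = 4) and 30.3 ± 10.3 CPM in controls (SD, n = 3). These means were 6.80% of the control mean in fshb/lhcgr mutants and 2.03% in lhb/lhcgr mutants. The lowest control was 4.96 times the highest fshb/lhcgr mutant and 13.9 times the highest lhb/lhcgr mutant, so neither mutant group overlapped the controls.

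**Figure D1:**
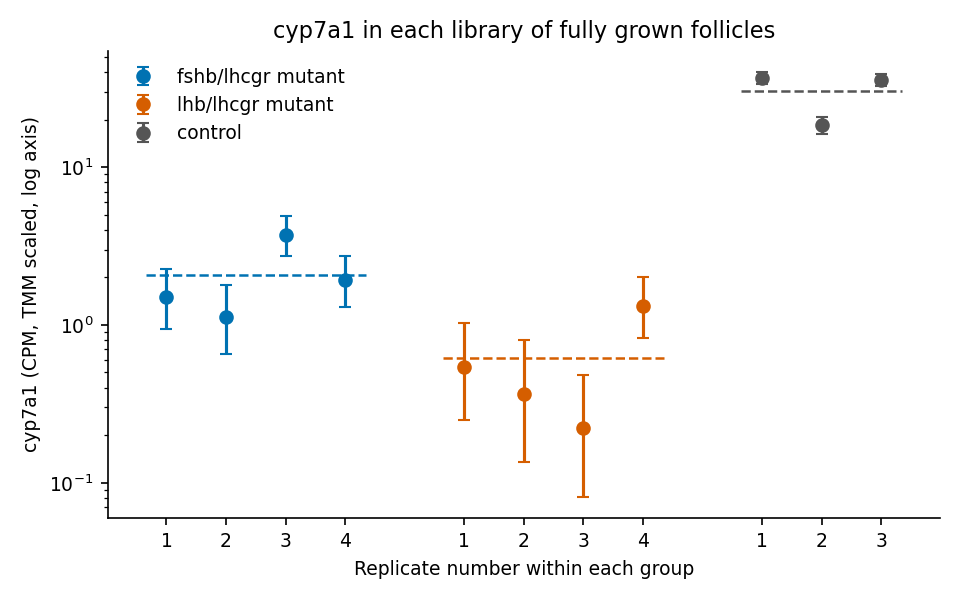
Level of cyp7a1 in each library, in TMM-scaled CPM on a log axis, with fshb/lhcgr mutants, lhb/lhcgr mutants and controls from left to right; bars are exact 95% Poisson intervals for counting error and dashed lines are group means. The controls sit between 18.4 and 36.8 CPM, above all 8 mutant libraries, and lhb/lhcgr mutant 4 (1.32 CPM) sits above fshb/lhcgr mutant 2 (1.12 CPM).

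Counting error set different limits in the groups. With 6 reads, lhb/lhcgr mutant 3 had an exact 95% Poisson interval of 0.0818 to 0.485 CPM. With 48 reads, the interval of fshb/lhcgr mutant 3 was 2.73 to 4.91 CPM. With 550 reads, control 1 had an interval of 33.8 to 40.0 CPM. These intervals cover counting error only, since reads without molecular identifiers are not independent molecules. Replicates also differed beyond them: the intervals of lhb/lhcgr mutant 3 and 4 (0.830 to 2.01 CPM) did not meet, nor did those of control 1 and control 2 (16.2 to 20.8 CPM). The highest library of a group was 3.31 times the lowest in fshb/lhcgr mutants, 5.94 times in lhb/lhcgr mutants and 2.00 times in controls.

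The fitted log2 differences describe the size of the contrast by which the gene was picked. cyp7a1 differed by -3.88 (SE 0.53) between fshb/lhcgr mutants and controls, or 14.7-fold lower in the mutants. For lhb/lhcgr mutants and controls the difference was -5.65 (SE 0.58), or 50.1-fold lower in the mutants. Both comparisons use the same 3 control libraries. Ordered from the most negative difference, cyp7a1 was the 22nd of 19421 genes for fshb/lhcgr mutants against controls and the 25th for lhb/lhcgr mutants against controls. The authors' deposited table gives a log2 fold change of -3.90 for fshb/lhcgr mutants over controls, from their means of 30.1 and 446. Their table for lhb/lhcgr mutants over controls gives -5.68, from means of 10.3 and 514.

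The mutant groups were then set against each other. The mean level of cyp7a1 in fshb/lhcgr mutants was above that in lhb/lhcgr mutants by 1.76 on the log2 scale (SE 0.53), a 3.40-fold difference with a 95% interval of 1.55 to 7.45. All 4 fshb/lhcgr mutant libraries lay above the lhb/lhcgr mutant mean, but the groups overlapped through lhb/lhcgr mutant 4. edgeR's quasi-likelihood test gave an unadjusted p of 0.00486 and, after Benjamini-Hochberg adjustment over all genes, 0.0968, so the gene was not called, where a call needs an adjusted p under 0.05. An exact 2-sided permutation test over the 70 arrangements of these 8 libraries gave p = 0.0571, where the smallest p the design allows is 0.0286. DESeq2 on the same counts gave a log2 difference of 1.78 with an adjusted p of 0.0131, so the call depends on the tool. Single libraries moved the edgeR estimate: it was 2.46 (adjusted p = 0.0561) without lhb/lhcgr mutant 4 and 1.33 (adjusted p = 0.245) without fshb/lhcgr mutant 3.

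In order of level, controls stood first, fshb/lhcgr mutants next and lhb/lhcgr mutants last. The mutant groups overlapped, and their difference missed the adjusted threshold in edgeR. On the length-corrected FPKM scale (fragments per kilobase of gene and per 1e+06 fragments) that the authors deposited, the order of the group means was the same. cyp7a1 had 0.737, 0.555, 1.84 and 0.944 FPKM in fshb/lhcgr mutants, with a mean of 1.02 ± 0.571 (SD, n = 4). It had 0.270, 0.181, 0.110 and 0.659 FPKM in lhb/lhcgr mutants, with a mean of 0.305 ± 0.245 (SD, n = 4). The controls had 18.4, 9.05 and 17.6 FPKM, with a mean of 15 ± 5.17 (SD, n = 3).

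The FPKM scale also places the gene among all others. In fshb/lhcgr mutants, 45.0% of the 27003 genes with a mean FPKM above 0 lay below cyp7a1. Among 27494 such genes in lhb/lhcgr mutants, 29.1% did. In controls, 78.6% of 26118 genes lay below it.

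The cytochrome P450 family gives the nearest frame for these levels. The table holds 85 genes whose symbol starts with cyp and a digit, and cyp7a1 was the 29th of them by mean FPKM in fshb/lhcgr mutants, the 42nd in lhb/lhcgr mutants and the 7th in controls. Over single libraries its place ran from 18 to 35 in fshb/lhcgr mutants, from 33 to 52 in lhb/lhcgr mutants and from 6 to 10 in controls. It made up 0.144 to 0.420% of the summed P450 FPKM in fshb/lhcgr mutants, 0.0284 to 0.153% in lhb/lhcgr mutants and 2.17 to 4.50% in controls.

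Above cyp7a1 in controls stood 6 P450 genes. cyp11a1, which cleaves the cholesterol side chain in steroid synthesis, averaged 154 ± 28.6, 159 ± 22.0 and 120 ± 9.37 FPKM in fshb/lhcgr mutants, lhb/lhcgr mutants and controls. cyp26a1, which degrades retinoic acid, averaged 21.3 ± 6.10, 23.3 ± 16.6 and 51.4 ± 12.1 FPKM in the same order. The steroid hydroxylase and lyase gene cyp17a1 averaged 42.4 ± 3.42, 44.2 ± 6.82 and 40.2 ± 7.54 FPKM. The others were cyp20a1, cyp3c1 and cyp2x12 (ENSDARG00000068290, 1 of 2 rows with that symbol), with control means of 28.3, 26.8 and 21.6 FPKM. None of these 6 passed the edgeR test in any comparison.

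Of the P450 genes other than cyp7a1, 46 passed the filter on low counts, and edgeR called 0 of them in each of the 3 comparisons. As background, edgeR called 0.0721% of all genes in fshb/lhcgr mutants against controls (0.0154% higher, 0.0566% lower). The share was 7.34% for lhb/lhcgr mutants against controls (2.89% higher, 4.45% lower) and 2.37% for fshb/lhcgr against lhb/lhcgr mutants (1.45% higher, 0.917% lower). At an unadjusted p under 0.05, 1 P450 gene was higher and 3 lower in fshb/lhcgr mutants against controls, 3 and 2 for lhb/lhcgr mutants against controls, and 4 and 4 for fshb/lhcgr against lhb/lhcgr mutants. Over all 19421 tested genes, 2291, 4829 and 3502 had an edgeR unadjusted p under 0.05, in either direction, in the same order of comparisons. limma-voom called 0 P450 genes in each comparison. DESeq2 called 0 in fshb/lhcgr mutants against controls, and cyp2x7 higher and cyp46a1.1 (1 of 2 rows with that symbol) lower in lhb/lhcgr mutants against controls. Between the mutants DESeq2 called cyp3c4 higher and cyp17a2 lower in the fshb/lhcgr group. The 46 log2 differences ran from -1.64 to 2.94 for fshb/lhcgr mutants against controls. For lhb/lhcgr mutants against controls they ran from -2.49 to 1.81. Their medians were -0.02 and 0.03, next to -0.03 and 0.01 over all tested genes. The cyp7a1 values of -3.88 and -5.65 lay below both ranges. cyp7a1 was picked for being lower, so its place outside the ranges is no separate result. The other row of cyp46a1.1 did not pass the filter and is not in the ranges. It averaged 0.0348 CPM in fshb/lhcgr mutants, 0 in lhb/lhcgr mutants and 0.947 in controls.

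**Figure D2:**
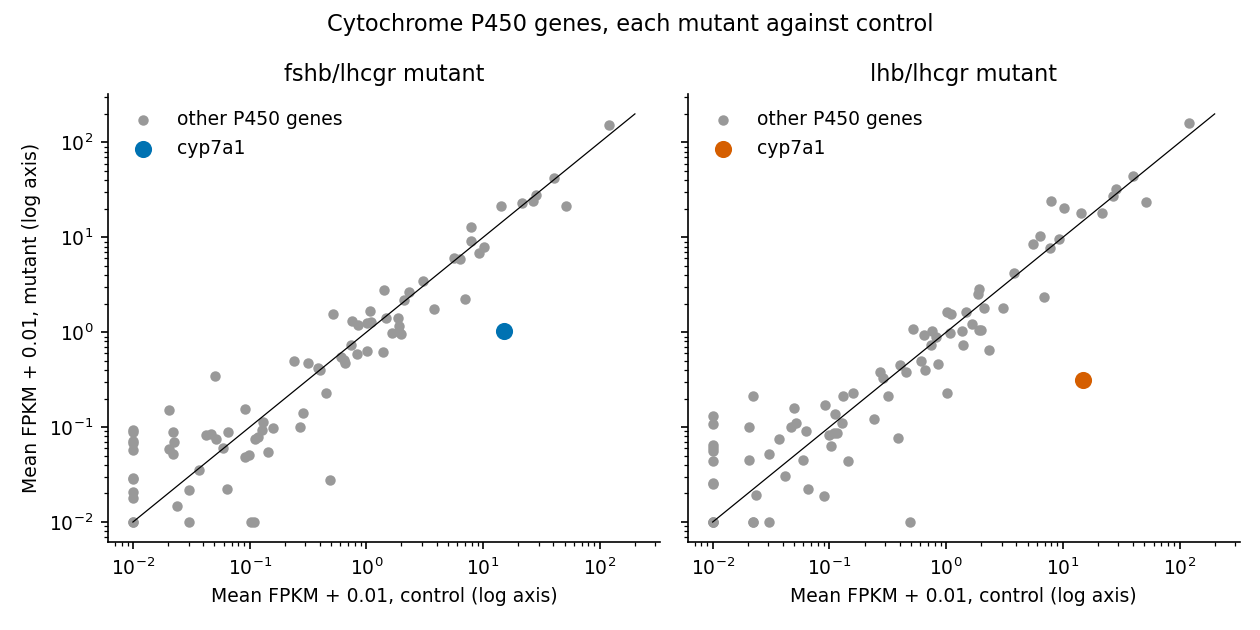
Mean FPKM (with 0.01 added, log axes) of the 85 P450 genes in fshb/lhcgr mutants (left) and lhb/lhcgr mutants (right), each against controls; the line marks equal levels and genes at 0 sit at the axis minimum. cyp7a1, the coloured point, falls below the line in both panels, at 1.02 and 0.305 FPKM in the mutants against 15 FPKM in controls.

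The paralog cyp7b1, which hydroxylates oxysterols in the alternative route to bile acids, was near the limit of detection and did not share the pattern of values. It had 0.751, 0.923, 1.85 and 1.55 CPM in fshb/lhcgr mutants, 2.23, 1.53, 0.854 and 0.361 CPM in lhb/lhcgr mutants and 0.134, 2.70 and 1.01 CPM in controls. Its groups overlapped in every comparison, and its group means of 1.27, 1.24 and 1.28 CPM lay close together. A second paralog, cyp7a1b, is named in RefSeq's gene table, and the count table has 0 rows under that symbol. How its reads were assigned is not shown by the files, so the cyp7a1 row could hold reads of a close copy.

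The other genes of bile acid biology were taken as 4 lists, with 86 rows in the table and 63 tested. edgeR called 0 of the 63 in fshb/lhcgr mutants against controls (5 lower and 1 higher at an unadjusted p under 0.05; 0 in limma-voom, 1 in DESeq2). Of all genes, edgeR called 0.0721% in that comparison, so this 0 says little about the lists. In lhb/lhcgr mutants against controls edgeR called 4 of the 63, all lower, where it called 4.45% of all genes lower. At an unadjusted p under 0.05, edgeR had 13 of the 63 lower and 5 higher there. Between the mutants edgeR called 0, with 0 in limma-voom and 9 in DESeq2. Of all genes, edgeR called 2.37% there, limma-voom 256 higher and 167 lower, and DESeq2 776 higher and 627 lower. At an unadjusted p under 0.05, 8 of the 63 were higher and 6 lower in fshb/lhcgr mutants. Over all 19421 tested genes, 2291, 4829 and 3502 had an edgeR unadjusted p under 0.05 in these comparisons, in this order. These totals cover both directions, so they give no background for the higher or the lower counts alone. Among the 63 tested genes, 1 was at least 5-fold lower in fshb/lhcgr mutants (abca1b, not called) and 1 in lhb/lhcgr mutants (slc10a1), both by less than cyp7a1. Listed rows that did not pass the filter are not in these counts. The untested row of cyp46a1.1 had 0, 0, 1 and 1 reads in fshb/lhcgr mutants. It had 0 in each lhb/lhcgr mutant and 15, 1 and 28 reads in controls. The abca1b difference rested on control 3, as the other controls had fewer reads of it than most fshb/lhcgr mutant libraries. The median log2 difference over the 63 was -0.18 for fshb/lhcgr mutants against controls and -0.02 for lhb/lhcgr mutants against controls.

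**Figure D3:**
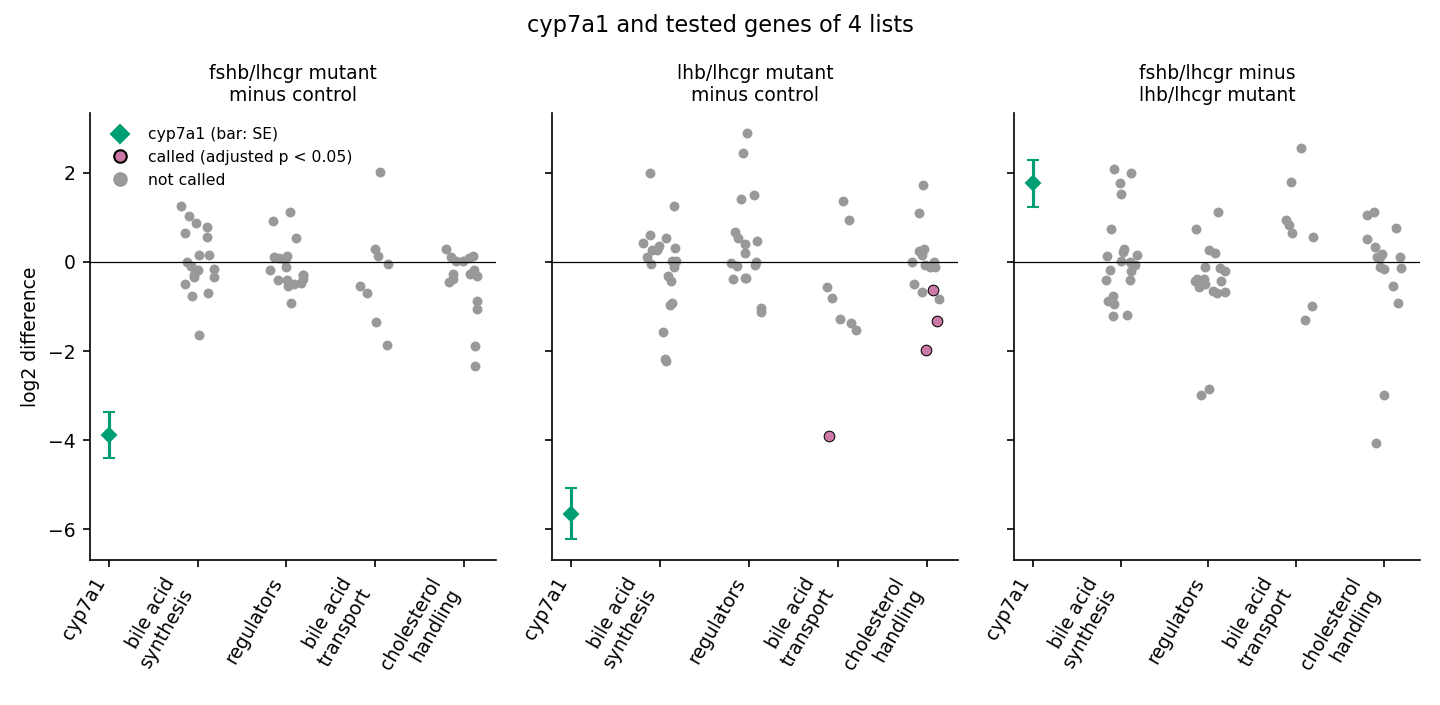
Log2 differences of cyp7a1 (diamond, bar: SE) and of the 63 tested genes of the 4 lists in fshb/lhcgr mutants minus controls (left), lhb/lhcgr mutants minus controls (middle) and fshb/lhcgr minus lhb/lhcgr mutants (right); outlined points passed the edgeR test. cyp7a1 lies below every list gene in the first pair of panels, and the 4 outlined points are slc10a1, soat1, mylipa and lpcat3 in the middle panel.

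The synthesis list named 39 symbols of enzymes and carriers of the classic and alternative routes, with 27 rows and 21 tested. Symbols without a row included akr1d1, acox2, slc27a5 and baat, so the list does not cover the whole route after cyp7a1. edgeR called 0 of the 21 in each comparison, and the list medians were -0.10 in fshb/lhcgr mutants against controls, 0.01 in lhb/lhcgr mutants against controls and -0.01 between the mutants. At an unadjusted p under 0.05, 1 gene was higher and 0 lower in fshb/lhcgr mutants against controls, 1 and 2 for lhb/lhcgr mutants against controls, and 1 and 2 for fshb/lhcgr against lhb/lhcgr mutants. limma-voom called amacr higher in lhb/lhcgr mutants against controls and no other member in any comparison. DESeq2 called amacr higher and cyp46a1.1 lower there, 0 in fshb/lhcgr mutants against controls, and sult2st1 lower in the fshb/lhcgr than in the lhb/lhcgr group. Over all 19421 tested genes, edgeR called 0.0721% in fshb/lhcgr mutants against controls, 7.34% in lhb/lhcgr mutants against controls and 2.37% between the mutants. In lhb/lhcgr mutants against controls limma-voom called 559 genes higher, and DESeq2 1198 higher and 1531 lower. DESeq2 called 627 genes lower between the mutants.

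hsd3b7, the dehydrogenase that acts on the product of the cyp7a1 step, stayed well expressed in libraries where cyp7a1 was near 0. It averaged 162 ± 11.7 CPM in fshb/lhcgr mutants, 149 ± 15 CPM in lhb/lhcgr mutants and 185 ± 16.9 CPM in controls. The peroxisomal transporter gene abcd3a averaged 63.3 ± 8.73, 71.5 ± 7.85 and 70.8 ± 12.4 CPM in the same order. The sulfotransferase gene sult2st1 averaged 21.6 ± 9.88, 41.4 ± 10.3 and 27.3 ± 7.42 CPM. For all 3 genes the groups overlapped in every comparison, unlike cyp7a1 in the mutants against controls. The sterol hydroxylase gene cyp8b1, which acts later on the classic route, had at most 0.550 CPM in any library and did not pass the filter.

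The regulators list held 27 rows, 18 of them tested. edgeR and limma-voom called 0 of the 18 in each comparison; at an unadjusted p under 0.05 edgeR had 0 higher and 1 lower in fshb/lhcgr mutants against controls, 3 higher and 2 lower in lhb/lhcgr mutants against controls, and 1 higher and 2 lower between the mutants. Over all genes, edgeR called 0.0721%, 7.34% and 2.37% in these comparisons, in this order. DESeq2 called nr5a1a and fgfr4 lower in lhb/lhcgr mutants against controls, where it called 1531 of all 19421 genes lower. Between the mutants it called nr5a1a higher and nr0b2a lower in the fshb/lhcgr group, and it called 0 in fshb/lhcgr mutants against controls. Over all genes, DESeq2 called 776 higher and 627 lower between the mutants.

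nr5a2, whose mammalian homolog activates CYP7A1, averaged 110 ± 24.7 CPM in fshb/lhcgr mutants, 91.4 ± 26.8 CPM in lhb/lhcgr mutants and 120 ± 62.6 CPM in controls, and its groups overlapped throughout. Its relative nr5a1a, a homolog of steroidogenic factor 1, averaged 225 ± 56.4, 103 ± 28.5 and 210 ± 148 CPM in the same order. The control with the highest nr5a1a (380 CPM) and nr5a2 (191 CPM) was control 2, which also had the highest sum of granulosa genes (1366 CPM). Any link of these regulators to the level of cyp7a1 was not tested. fgfr4, the receptor through which FGF19 acts on CYP7A1 in mammalian liver, averaged 83.9 ± 15.7, 50.0 ± 24.7 and 109 ± 26.6 CPM.

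The transport list held 13 rows, 8 of them tested. edgeR and limma-voom each called 1 of them, slc10a1, lower in lhb/lhcgr mutants against controls, and 0 in the other comparisons. Of all 19421 tested genes, edgeR called 4.45% lower in lhb/lhcgr mutants against controls and limma-voom 812. DESeq2 called 1198 higher and 1531 lower in that comparison. DESeq2 also called atp8b1 and abcc2 lower and slc51a higher there, and 0 in fshb/lhcgr mutants against controls. Between the mutants it called slc10a1 and abcb11a higher and slc51a lower in the fshb/lhcgr group. slc10a1, whose mammalian homolog takes bile salts up into hepatocytes, had 13, 4, 31 and 11 reads in fshb/lhcgr mutants, 5, 1, 8 and 0 in lhb/lhcgr mutants and 38, 38 and 45 in controls. Like cyp7a1, it overlapped with the controls in neither mutant group, at far lower counts. Its gap was narrow for the fshb/lhcgr mutants, whose highest library had 31 reads where the lowest controls had 38. In lhb/lhcgr mutants against controls it fell by 3.91 on the log2 scale (SE 0.88, edgeR adjusted p = 0.0211). Leaving out lhb/lhcgr mutant 4 (adjusted p = 0.0560) or control 1 (adjusted p = 0.0580) ended that call. In fshb/lhcgr mutants against controls its difference of -1.35 (SE 0.79) had an edgeR adjusted p of 0.530. The members of highest level that edgeR did not call were atp8b1, slco2b1 and slc51a, which code for a flippase of the bile canaliculus in mammals, an organic anion carrier and a subunit of a bile acid exporter. They averaged 49.7, 28.2 and 72.5 CPM for atp8b1, 44.7, 28.6 and 11 CPM for slco2b1 and 19.3, 38.3 and 19.8 CPM for slc51a, in fshb/lhcgr mutants, lhb/lhcgr mutants and controls.

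The cholesterol handling list held 19 rows, 16 of them tested. edgeR and limma-voom each called the same 3 lower in lhb/lhcgr mutants against controls, namely soat1, mylipa and lpcat3, and 0 in the other comparisons. Of all 19421 tested genes, edgeR called 4.45% lower in lhb/lhcgr mutants against controls, limma-voom 812 and DESeq2 1531. DESeq2 called these 3 and lipeb lower there, and srebf1 lower in fshb/lhcgr mutants against controls. Between the mutants it called mylipa and soat1 higher and srebf1 lower in the fshb/lhcgr group. soat1, which esterifies cholesterol for storage, averaged 55.8 ± 9.14 CPM in fshb/lhcgr mutants, 25.7 ± 14.7 CPM in lhb/lhcgr mutants and 102 ± 32.2 CPM in controls. It fell in lhb/lhcgr mutants by 1.99 on the log2 scale (SE 0.36, edgeR adjusted p = 0.0101), and the call held with each single library left out but not without lhb/lhcgr mutants 3 and 4 together (adjusted p = 0.0987). mylipa, a homolog of the ubiquitin ligase that degrades the LDL receptor, averaged 323 ± 50.5, 156 ± 29.2 and 389 ± 198 CPM and fell by 1.31 (SE 0.29, edgeR adjusted p = 0.0189). lpcat3, an enzyme of phospholipid remodelling, averaged 59.8 ± 3.01, 52.9 ± 2.95 and 82.1 ± 12.3 CPM and fell by 0.63 (SE 0.15, edgeR adjusted p = 0.0224). The mylipa call was lost without lhb/lhcgr mutant 4 (adjusted p = 0.0551) or control 1 (adjusted p = 0.0786), and with only the groups compared in the fit (adjusted p = 0.0510). The lpcat3 call was lost without lhb/lhcgr mutant 1 or 4 or control 2 or 3 (adjusted p of 0.0503 to 0.0726) and with scaling by library size only (adjusted p = 0.0576). Without lhb/lhcgr mutants 3 and 4 together, the slc10a1, mylipa and lpcat3 calls were lost too (adjusted p = 0.0991, 0.125 and 0.124). npc2, scarb1 and npc1, which move cholesterol out of lysosomes or in from lipoproteins, had means of 193 CPM or more in every group and were not called by edgeR.

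CYP7A1 is best known from liver, so the libraries were also read for markers of hepatocytes and enterocytes. The hepatocyte list has 19 rows, 8 of them tested, and its summed level was 13.2 to 30.5 CPM in fshb/lhcgr mutants, 19.3 to 34.1 CPM in lhb/lhcgr mutants and 12.8 to 22.7 CPM in controls. Of its 19 rows, 3 had 0 reads in every library, fabp10a and apoa2 among them. The enterocyte list has 11 rows, 2 of them tested, and summed to 0.989 to 2.32, 2.14 to 4.27 and 2.46 to 4.40 CPM in the same order, with fabp1b.1 at 0 in every library. The hepatocyte sum thus overlapped between groups and was higher on average in both mutants than in controls. Against controls, its 8 tested genes had a median log2 difference of -0.01 in fshb/lhcgr mutants and 1.08 in lhb/lhcgr mutants. The enterocyte sum, at a very low level, was lower in every fshb/lhcgr mutant than in any control, as cyp7a1 was. In lhb/lhcgr mutants the enterocyte sum overlapped with the controls. The 2 tested enterocyte genes went opposite ways in fshb/lhcgr mutants against controls, with log2 differences of -1.03 and 1.24. In lhb/lhcgr mutants against controls they differed by 0.17 and 1.60, and edgeR called 0 of them in each comparison. The part of hepatocytes or enterocytes in the level of cyp7a1 was not tested.

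**Figure D4:**
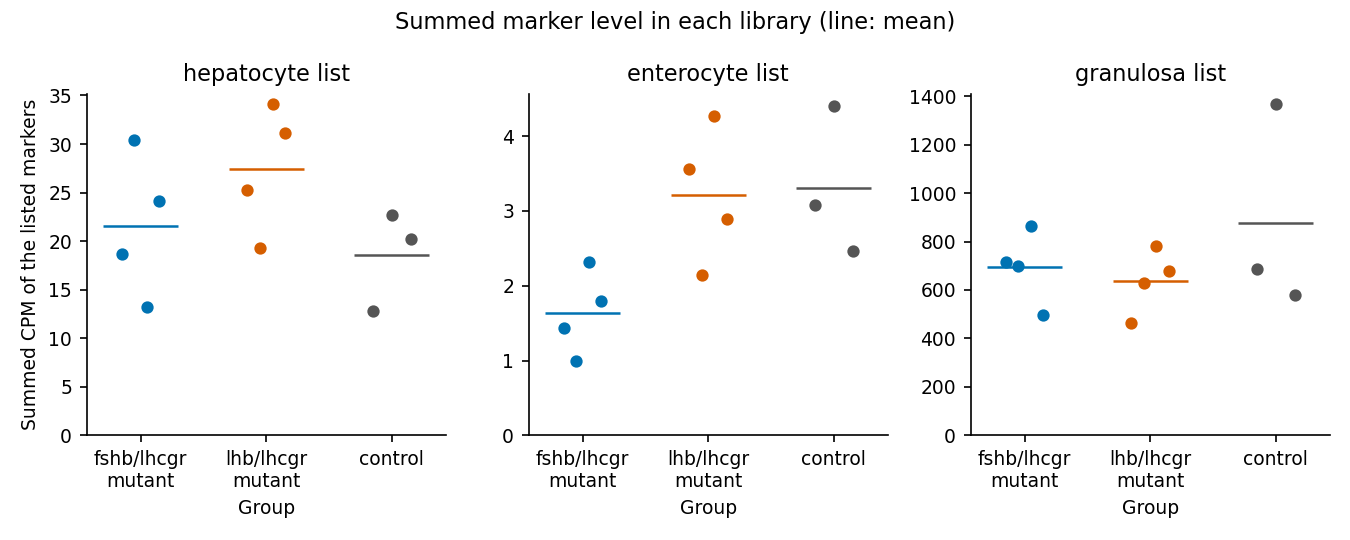
Summed CPM of the hepatocyte, enterocyte and granulosa marker lists in each library (points) with group means (lines), for fshb/lhcgr mutants, lhb/lhcgr mutants and controls from left to right. The hepatocyte sums overlap between the groups at 12.8 to 34.1 CPM, and the highest granulosa sum (1366 CPM) belongs to control 2. The enterocyte sums of the fshb/lhcgr mutants (0.989 to 2.32 CPM) lie below those of the controls (2.46 to 4.40 CPM).

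Marker sums of the follicle's own cell types ranged less widely between groups than cyp7a1 did. The granulosa sum was 498 to 862 CPM in fshb/lhcgr mutants, 465 to 783 CPM in lhb/lhcgr mutants and 580 to 1366 CPM in controls, and the 1366 CPM belonged to control 2. That list includes fshr and the mutated lhcgr, and lhcgr alone had 102 to 171, 115 to 188 and 104 to 336 CPM in the same order. 9 theca genes summed to 213 to 239, 210 to 262 and 190 to 332 CPM in that order. The endothelial sum over 8 genes was 104 to 200 CPM in fshb/lhcgr mutants, 73.6 to 82.9 CPM in lhb/lhcgr mutants and 127 to 220 CPM in controls, so the lhb/lhcgr mutants overlapped with neither other group on this list, while on cyp7a1 they overlapped with the fshb/lhcgr mutants. The macrophage and neutrophil sum was 10.4 to 34.6, 10.4 to 58.9 and 8.43 to 28.4 CPM, and the adipocyte sum 43.4 to 78.9, 26.3 to 194 and 33.5 to 114 CPM. These sums hide single members. In lhb/lhcgr mutants against controls edgeR called 1 of 9 tested granulosa genes higher, and 1 of 8 theca and 2 of 8 endothelial genes lower. Of all genes, 2.89% were called higher and 4.45% lower there. In fshb/lhcgr mutants against controls it called 0 of these 3 lists. Between the mutants it called 1 theca and 2 endothelial genes higher, against 1.45% of all genes. The part of any of these cell types in the level of cyp7a1 was not tested.

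Genes with the profile most like that of cyp7a1 were ranked over the 11 libraries. The measure was the root mean square difference in log2 CPM after each gene was centred on its own mean, over 19420 genes. A flat profile had a distance of 2.29 and the median gene 2.36, and the nearest gene had 1.00. The 8 nearest genes with a proper symbol were alpi.2, pla2g1b, tm6sf2, abhd3, cplx2, crip3, adm2a and paqr7a, at distances of 1.00 to 1.26. They were chosen by their values, so these are given as a description.

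alpi.2, an alkaline phosphatase gene of the intestinal type, had 28, 1, 35 and 21 reads in fshb/lhcgr mutants, 0, 0, 0 and 2 in lhb/lhcgr mutants and 179, 179 and 443 in controls. pla2g1b, a secreted phospholipase gene, had 21, 3, 25 and 3 reads, 0, 0, 5 and 0 reads, and 130, 69 and 92 reads in the same groups. tm6sf2, whose human homolog takes part in lipoprotein assembly, had 0, 1, 0 and 0 reads, 0 in each lhb/lhcgr mutant, and 22, 12 and 30 reads in controls. Like cyp7a1, these 3 had few or no reads in the mutants.

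The other 5 were better covered. abhd3 averaged 57.8 ± 23.0 CPM in fshb/lhcgr mutants, 11.3 ± 4.14 CPM in lhb/lhcgr mutants and 159 ± 28.7 CPM in controls. adm2a, a peptide hormone gene of the adrenomedullin family, averaged 29.1 ± 8.23, 5.09 ± 2.73 and 64.3 ± 6.33 CPM in the same order. crip3 averaged 9.04, 1.62 and 20.5 CPM, and cplx2 averaged 4.40, 1.37 and 17.6 CPM. paqr7a, which encodes a membrane progestin receptor, averaged 1.04 ± 0.624, 0.699 ± 0.451 and 7.26 ± 0.142 CPM. In all 8 genes the group means had the order of cyp7a1, with controls highest and lhb/lhcgr mutants lowest. Genes chosen for a like profile tend to have that order, so it is not a separate result. For tm6sf2 the order of the mutants rests on 1 read.

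**Figure D5:**
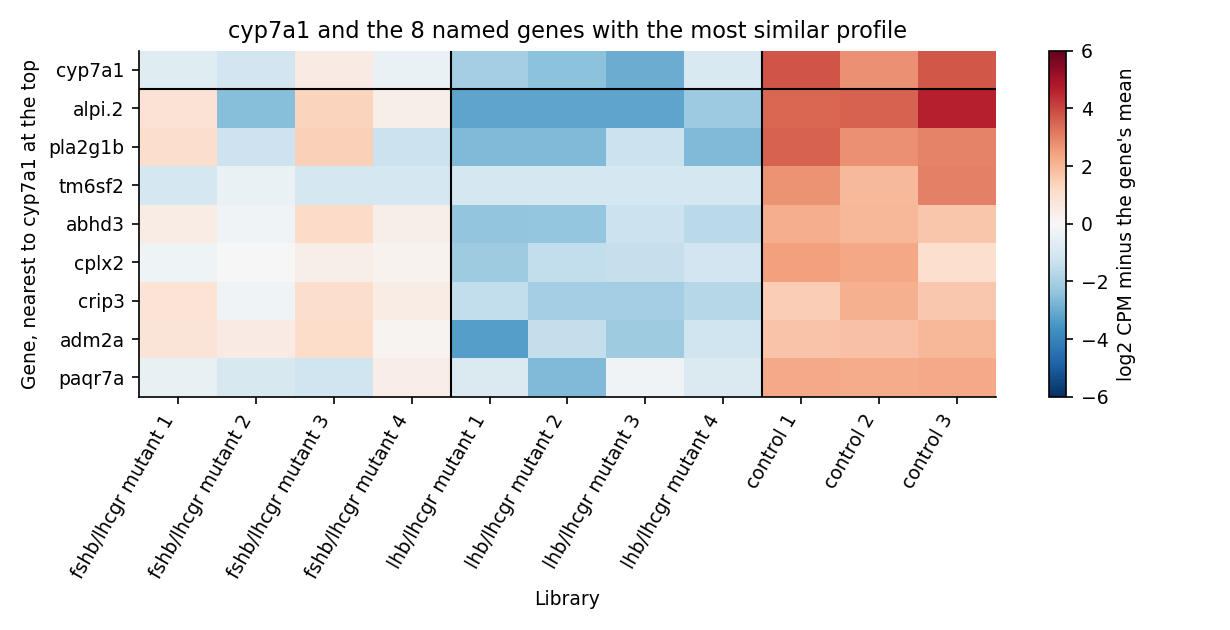
Heat map of log2 CPM minus the gene's mean over 11 libraries for cyp7a1 (top) and the 8 named genes nearest to it, with fshb/lhcgr mutants, lhb/lhcgr mutants and controls from left to right. All 9 rows are red in the 3 controls and mostly blue in the lhb/lhcgr mutants, and the fshb/lhcgr mutants mostly lie between.

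The genes beside cyp7a1 on the chromosome were read to see whether the whole neighbourhood moved with it. RefSeq's zebrafish gene table (GRCz12tu) gives tox, ca8, rab2a and chd7 on one side and fam110b on the other, and it was used for the order of genes only. The next genes beyond fam110b, pimr65 and pimr66 among them, had no row under their symbols in the count table and could not be read. ca8, a carbonic anhydrase-related gene, averaged 65.9 ± 25.2 CPM in fshb/lhcgr mutants, 38.3 ± 10.8 CPM in lhb/lhcgr mutants and 165 ± 45.3 CPM in controls. It fell in lhb/lhcgr mutants against controls by 2.11 on the log2 scale (SE 0.29, edgeR adjusted p = 0.00302) and kept that call in all 22 alternatives. In fshb/lhcgr mutants against controls ca8 differed by -1.33 (SE 0.29, edgeR adjusted p = 0.136), and between the mutants by 0.78 (SE 0.27, edgeR adjusted p = 0.151).

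The gene next to cyp7a1 had a difference of the opposite sign between the mutants. tox, which encodes an HMG-box protein, had 1.71, 0.725, 1.23 and 2.04 CPM in fshb/lhcgr mutants, 9.18, 2.81, 8.32 and 6.38 CPM in lhb/lhcgr mutants and 2.34, 3.19 and 1.76 CPM in controls. It was lower in fshb/lhcgr than in lhb/lhcgr mutants by a log2 difference of -2.22 (SE 0.45, edgeR adjusted p = 0.0235), where cyp7a1 had the positive difference of 1.76. That call was lost in 6 of 22 alternatives, 5 of which left out 1 mutant library (adjusted p of 0.0527 to 0.0779). chd7, a chromatin remodeller gene, averaged 117, 114 and 184 CPM and fell in lhb/lhcgr mutants against controls by 0.69 (SE 0.19, edgeR adjusted p = 0.0414), a call lost in 14 of 22 alternatives. In fshb/lhcgr mutants against controls chd7 differed by -0.65 (SE 0.19, edgeR adjusted p = 0.252). For chd7 and ca8, as for cyp7a1, neither mutant group overlapped the controls. tox and rab2a overlapped with the controls in both mutant groups, and fam110b in lhb/lhcgr mutants only. rab2a and fam110b were not called in any comparison.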

How the data were processed

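Bulk RNA-seq of 11 libraries was re-analysed from tables deposited by the authors: raw counts per gene, FPKM (1 fixed length per gene), and the authors' comparisons with log2 fold changes, p-values and mean expression (a normalized signal). DESeq2 1.20.0 was used upstream, per the submitters' processing notes. The genome build, strand use, counting tool and aligner: not given in the sources used here. Hence coordinates were left out, and reads of close copies or antisense genes could be shared. Sequences were not used here.

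Deposited counts were tested with edgeR 4.0.16 in R 4.3.3 (filterByExpr with minimum count 10 and total 15, TMM, 1 robust quasi-likelihood fit of 3 groups, 2-sided, Benjamini-Hochberg over 19421 genes, calls at an adjusted p under 0.05). CPM are TMM-scaled counts per 1e+06, and log2 CPM for likeness had a prior count of 2. Each SE was derived as the absolute log2 difference divided by the square root of the test's F statistic. The interval of the fold difference was built from that SE with a t quantile. The code was tested on simulated data.

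The gene, lists and rules were chosen with earlier results of these data known. The 4 bile acid lists (synthesis, regulators, transport, cholesterol handling) were described by their counts and medians. Up to 4 called members with the smallest p and 3 uncalled members of highest level were named per list and comparison, with the 6 top P450 genes in controls, the 8 nearest profiles, the chromosomal neighbours and the 3 mutated genes. Other genes (cyp7b1, cyp8b1, abca1b and those named for a DESeq2 or limma-voom call) were named after their values were seen. Marker lists covered hepatocytes, enterocytes, oocyte, granulosa, theca, endothelium, macrophages and neutrophils, and adipocytes. Groups and replicate numbers came from sample titles. Alternatives were RLE, upper quartile and library size scaling, no filter, a minimum of 1 CPM in 3 libraries, limma-voom (limma 3.58.1), DESeq2 1.42.0, only the compared groups, the replicate block, a gene length trend, each library left out, lhb/lhcgr mutants 3 and 4 both left out, and log2(FPKM + 0.1 or 1).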

Additional observations from a re-analysis of the deposited data

Results flagged for a closer look

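In the 4 lhb/lhcgr mutant libraries, 4 genes had 1 library far from the others, by Dixon's ratio of the gap to the group's range at its 95% critical value. fgfr4 had 13.4 CPM in lhb/lhcgr mutant 2 and 57.0 to 65.1 CPM in the others (ratio 0.843). slco2b1 had 4.10 CPM in the same library and 34.9 to 40.0 CPM in the others (ratio 0.858). cyp3c1 had 79.9 CPM in lhb/lhcgr mutant 1 and 54.4 to 54.7 CPM in the others (ratio 0.987). cyp20a1 had 51.3 CPM in lhb/lhcgr mutant 4 and 58.4 to 59.3 CPM in the others (ratio 0.884). These came from 56 groups of 28 genes, and chance flags about 1 in 20 groups. cyp7a1 had no such library in either mutant group.

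The difference of tox from controls was not the same in the mutants: fshb/lhcgr minus lhb/lhcgr mutants gave a log2 difference of -2.22 (edgeR adjusted p = 0.0235).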

How the results depend on the processing

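The difference of cyp7a1 between fshb/lhcgr and lhb/lhcgr mutants stayed positive in all 24 alternatives, and DESeq2 (1.78, adjusted p = 0.0131) was the only 1 that called it. With 1 library left out it ran from 1.33 to 2.46, and without lhb/lhcgr mutants 3 and 4 it was 2.15 (edgeR adjusted p = 0.179). Against controls the gene was picked for its direction and the groups did not overlap, so an unchanged sign in the alternatives is no check. The size of the difference had leave-one-out ranges of -4.31 to -3.68 for fshb/lhcgr mutants and -6.34 to -5.33 for lhb/lhcgr mutants. On log2(FPKM + 1) the differences shrank to -2.97 for fshb/lhcgr mutants and -3.57 for lhb/lhcgr mutants, as a pseudocount of 1 lies above most mutant values. With 6 to 48 reads, the mutant levels are limited by depth.

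The count of list genes called between the mutants (0) was 9 in DESeq2, 2 with library size only, 2 with only the groups compared and 0 to 4 with 1 library left out (4 if lhb/lhcgr mutant 2 is the one, 2 for control 2, and 1 for fshb/lhcgr mutant 3 or control 1). For lhb/lhcgr mutants against controls (4) it was 12 in DESeq2, 0 without lhb/lhcgr mutants 3 and 4, and 1 to 7 with 1 library left out (1 for lhb/lhcgr mutant 4, and 7 for lhb/lhcgr mutant 2 or control 2). For fshb/lhcgr mutants against controls (0) it was 1 in DESeq2 and 0 to 0 with 1 library left out. Calls over all genes also moved with the setting. For lhb/lhcgr mutants against controls the main edgeR fit made 562 higher and 864 lower calls, and DESeq2 made 1198 and 1531. Dropping lhb/lhcgr mutant 4 left 90 and 207 edgeR calls, and dropping mutants 3 and 4 left 18 and 111. Dropping lhb/lhcgr mutant 2 or control 2, where the list count rose to 7, left 412 and 613 or 526 and 922. Between the mutants, edgeR made 282 and 178 calls and DESeq2 776 and 627. The settings differed in the tool, the samples or the genes tested. Without control 2, 67 list genes were tested, against 63 in the main fit. The cause of the shifts was not tested.

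Scaling by library size only shifted the overall median log2 difference to 0.12, against 0.01 with TMM, for lhb/lhcgr mutants minus controls, and to -0.15, against -0.02, for fshb/lhcgr minus lhb/lhcgr mutants. Higher and lower calls then stood at 848 and 578, against 562 and 864 with TMM, for lhb/lhcgr mutants against controls, and at 200 and 318, against 282 and 178, for fshb/lhcgr against lhb/lhcgr mutants. cyp7a1 differed by -5.55 and 1.62 there. DESeq2 made 124 higher and 154 lower calls in fshb/lhcgr mutants against controls, where edgeR made 3 and 11.

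Of 10 same-numbered pairs of libraries, 3 had deviations that correlated above 0.1 (range -0.08 to 0.12, against -0.19 to 0.14 for other pairs), and 5 of 11 libraries correlated best with their own number. The pairs of replicate 1 stood at 0.122, 0.116 and 0.0987. Since not every pair passed 0.1, the numbers were not taken as a pairing. These are the replicate numbers of the sample titles, and the library names number most samples differently. A pairing by library name was not examined. With the replicate number as a block, cyp7a1 differed by 1.85 between the mutants (edgeR adjusted p = 0.0745), by -4.10 in fshb/lhcgr mutants and by -5.94 in lhb/lhcgr mutants against controls. The block gave 324 higher and 619 lower calls in lhb/lhcgr mutants against controls, and list counts of 0, 5 and 0.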

Other observations

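Some genes of the lists split the libraries in ways that the groups and cyp7a1 did not follow, and they were chosen after their values were seen. cyp27a1.4, a relative of the sterol hydroxylase that opens the alternative route to bile acids, had 121, 119, 1 and 5 reads in fshb/lhcgr mutants, 58, 149, 61 and 40 in lhb/lhcgr mutants and 296, 1 and 296 in controls. Its lowest control was control 2, which also had the least cyp7a1 among controls. The cholesterol exporter gene abca1b had 16, 108, 125 and 289 reads in fshb/lhcgr mutants, 30, 2124, 8389 and 2499 in lhb/lhcgr mutants and 9, 49 and 2079 in controls. The apolipoprotein gene apoeb had 94, 268, 584 and 1843 reads, 31, 8034, 13993 and 7447 reads, and 9, 56 and 8031 reads in the same groups. Both were lowest in the first library of each group and were not called by edgeR in any comparison. nr0b2a, a homolog of the repressor that acts on CYP7A1 in mammalian liver, had 71, 116, 158 and 39 reads in fshb/lhcgr mutants, 481, 30, 2636 and 1385 in lhb/lhcgr mutants and 151, 83 and 213 in controls, and was not called by edgeR. Within the lhb/lhcgr mutants, its highest value fell in library 3, which had the least cyp7a1 in CPM, but library 4 was high for both genes. Any link of these genes to the level of cyp7a1 was not tested.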
